A study of Homo sapiens with 6 samples.

Results

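The genes of the aminoacyl-tRNA synthetases were followed in H1299, a human cell line long established from a non-small cell lung carcinoma, with and without overexpression of the long non-coding RNA lncBCAS1-4_1. Members were the table entries whose gene symbol is a synthetase name on a list of 53 current and older symbols, which found 35 of 19201 entries, 19 for cytosolic and 16 for mitochondrial enzymes. FARSA and FARSB, the subunits of the cytosolic phenylalanyl enzyme, were counted as cytosolic. The aspartyl enzymes are not among the members. The cytosolic one was sought under the older symbol DARS alone, which was not found, and the mitochondrial one was not on the list. No member was left out by the filter on low counts, and the lowest count of any member in any library was 719.

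RNA-seq gene counts came from 6 libraries: 3 of wild-type H1299 (the controls) and 3 of H1299 overexpressing lncBCAS1-4_1. All 6 share the cell line and the total RNA extraction. The labels name no vector for the controls and no method of overexpression, so an effect of the procedure and an effect of the RNA cannot be told apart. Nor do they state whether replicates are separate cultures, so the p-values speak for the spread of these 6 libraries, part or all of which may be technical. Total counts lay between 84531039 and 92780032 per library. The keratins KRT8 and KRT18 were at 368 and 956 CPM in the controls (CPM, counts per 1e6 counts of the scaled library), while the lung lineage factor NKX2-1 was at 0.674 CPM. The summed epithelial markers (4 of 7 in the table) moved with the groups, at 1260 to 1430 CPM in the controls and 1680 to 1890 CPM with overexpression, and their part in the results below was not tested. Summed over the markers present, fibroblast genes reached at most 3.58 CPM and endothelial genes at most 1.73 CPM in any library. Leukocyte genes (2 of 5 in the table) also moved with the groups, at 69.8 to 74.2 CPM in the controls and 79.3 to 88.0 CPM with overexpression, nearly all of it CD68, which rose from 71.9 to 83.2 CPM (edgeR, adjusted p = 0.0094). Their part in the results below was not tested either.

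Each synthetase joins an amino acid to its own transfer RNA, the step that fixes the genetic code. Cells keep separate enzymes for the cytosol and for the mitochondria, where the few proteins encoded by the mitochondrial genome are made, and nuclear genes encode both sets. The enzymes fall into class I and class II by the fold of their catalytic domain, and several cytosolic enzymes are held in a multi-synthetase complex with the scaffold proteins AIMP1, AIMP2 and EEF1E1. When amino acids run short, uncharged transfer RNA activates the kinase GCN2 (EIF2AK4). The transcription factor ATF4 is then made and acts on many cytosolic synthetase genes.

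The cytosolic synthetases split into a rising and a falling set, and most mitochondrial ones did not pass the test. Of 19 cytosolic genes, 10 rose and 7 fell with overexpression (edgeR, adjusted p under 0.05). Of 16 mitochondrial genes, 3 rose and 2 fell. Among all 19101 entries tested, 18.3% were higher and 19.7% lower. In 15 of the 35 members every overexpressing library was above every control, and in 11 every one was below, where 24.7% and 26% of all entries showed such a gap. The differences were small: the largest rise was 1.36-fold (SARS1) and the lowest ratio of overexpressing to control was 0.752 (IARS2). No member passed the study's own criterion of a fold change over 2 or under 0.5 at an unadjusted p under 0.05, which 1.77% of all entries passed as higher and 1.18% as lower. With edgeR at an unadjusted p under 0.05 and no fold criterion, 14 members were higher and 9 lower. The share of all entries passing at that threshold was not counted, so these numbers cannot be set against it. The median log2 fold change was 0.17 for cytosolic and 0.04 for mitochondrial genes, beside -0.0041 over all entries tested.

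**Figure D1:**
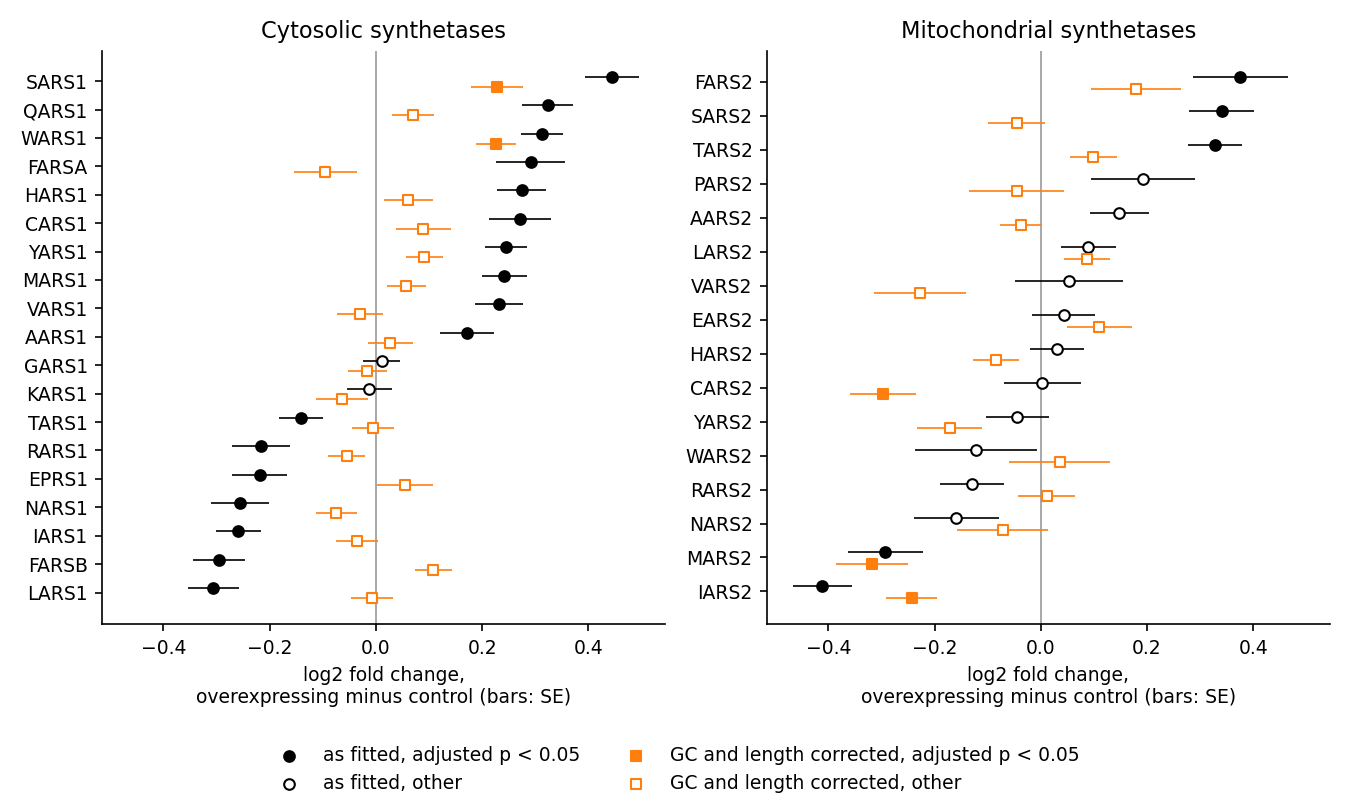
Log2 fold change of each synthetase gene, overexpressing minus control, with its SE as a bar, cytosolic genes on the left and mitochondrial genes on the right. Black circles are values as fitted and orange squares are values corrected for the GC content and length of the transcripts, filled where the adjusted p is under 0.05; 22 genes are filled in black and 5 in orange.

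Levels were compared between genes per kilobase of transcript (CPM per kb of the canonical transcript, an approximation where other isoforms are used). Cytosolic enzymes lay between 16.3 (FARSB) and 227 (KARS1) CPM per kb in the controls, with a median of 87.2, and mitochondrial enzymes between 3.55 (WARS2) and 44.6 (IARS2), with a median of 12.8. Of 13 amino acids with a single gene for each compartment, the cytosolic gene was at the higher level per length in all 13 in the controls. The ratio of cytosolic to mitochondrial level ran from 1.49 for cysteine (CARS1 over CARS2) to 22.7 for tryptophan (WARS1 over WARS2). Summed over the 19 cytosolic genes, the controls reached 4732 ± 19 CPM and the overexpressing cells 4988 ± 145 CPM (SD over 3 libraries). The mitochondrial sum was 756.8 ± 8.5 and 753.5 ± 27.9 CPM. The overexpressing libraries spread more widely than the controls in both sums.

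**Figure D2:**
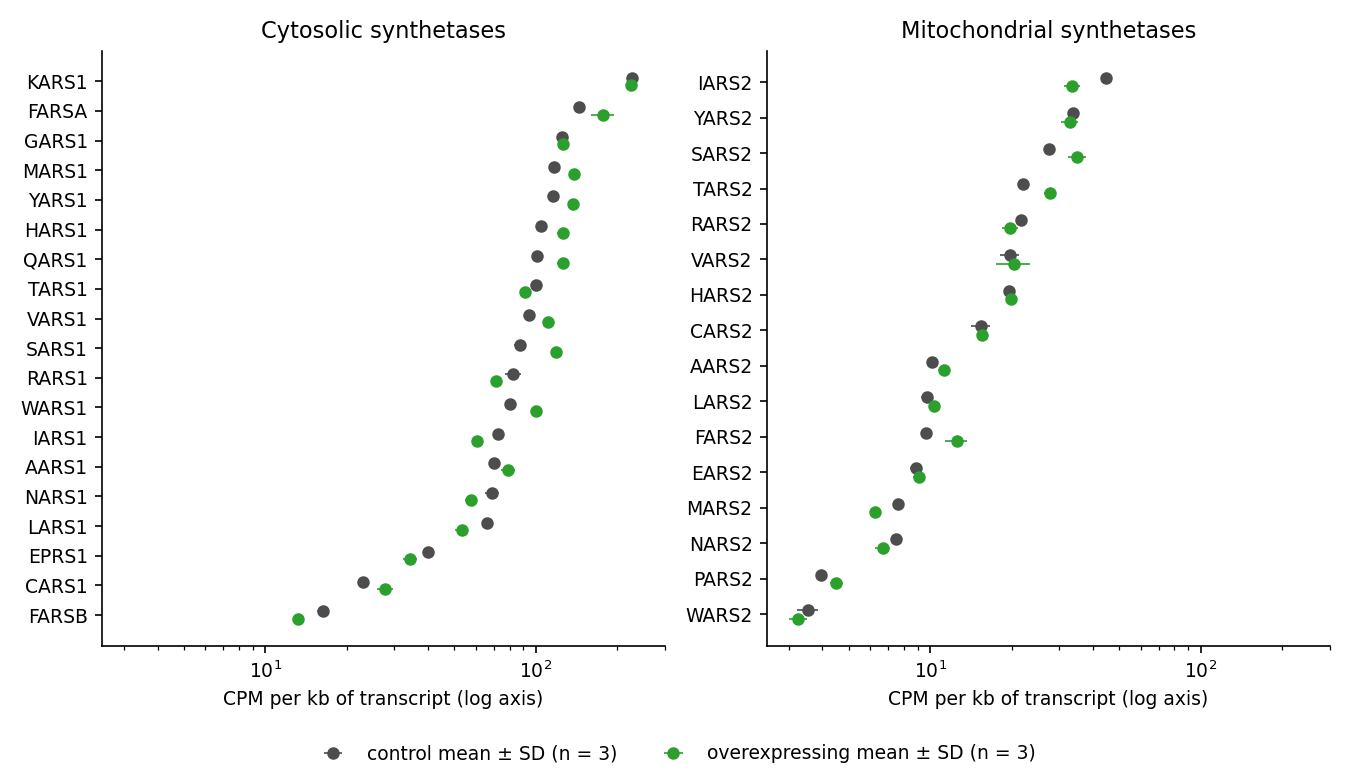
Level of each synthetase gene in CPM per kb of transcript on a log axis, as the mean of 3 controls (grey) and of 3 overexpressing libraries (green), with the SD as a bar. The cytosolic genes reach from 16.3 to 227 in the controls and the mitochondrial genes from 3.55 to 44.6.

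SARS1, the cytosolic seryl enzyme (chr1:109213918-109238182, plus strand, GRCh38), showed the largest rise among the members. It was at 158.8, 166.4 and 175.7 CPM in controls 1 to 3 and at 233.2, 232.6 and 216.2 CPM in overexpressing libraries 1 to 3. Every overexpressing library was above every control (log2 fold change 0.45, SE 0.05, adjusted p = 0.00034). WARS1, the cytosolic tryptophanyl enzyme and an interferon-inducible gene (chr14:100333790-100376805, minus strand), had 212.4, 210.4 and 214.3 CPM in the controls and 266.3, 271.1 and 254.3 CPM in the overexpressing cells. Its controls lay within 4 CPM of each other, and the groups did not overlap (log2 fold change 0.31, SE 0.04, adjusted p = 0.00048). QARS1, which charges glutamine and sits in the multi-synthetase complex, averaged 247.1 ± 8.5 CPM in the controls and 309 ± 15 CPM with overexpression (SD over 3 libraries), and its log2 fold change was 0.32. Its libraries read 241.7, 242.6 and 257.0 against 323.6, 310.6 and 293.5 CPM.

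FARSA, the catalytic subunit of the phenylalanyl enzyme, had 258.2, 261.3 and 268.6 CPM in the controls and 358.8, 303.4 and 302.2 CPM in the overexpressing cells. Overexpressing library 1 stood above the other 2, and the log2 fold change was 0.29 (SE 0.07, adjusted p = 0.0071). HARS1 (histidine) had 198.2, 209.2 and 200.8 against 258.2, 239.6 and 237.8 CPM, and CARS1 (cysteine), the lowest of the rising set, 59.94, 64.41 and 64.45 against 74.95, 81.45 and 71.41 CPM. The groups did not overlap for either gene, and both log2 fold changes were 0.27. The remaining rises were 0.24 for YARS1 (tyrosine), 0.24 for MARS1 (methionine), 0.23 for VARS1 (valine) and 0.17 for AARS1 (alanine). AARS1 was the least firm of the 10: its adjusted p of 0.025 became 0.077 without control 1, 0.10 without control 2, 0.076 without overexpressing library 1 and 0.066 without overexpressing library 2. Exons of MARS1 overlap those of DDIT3 on the opposite strand over 355 exon bases, and without stated strandedness such reads cannot be told apart. DDIT3 averaged 6.16 CPM in the controls and 12.9 CPM with overexpression, against 327 CPM for MARS1 in the controls.

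The falling set was led by LARS1, the leucyl enzyme. It had 318.1, 319.2 and 305.8 CPM in the controls and 262.0, 238.0 and 262.8 CPM in the overexpressing cells, with no overlap (log2 fold change -0.31, SE 0.05, adjusted p = 0.0012). FARSB, the partner subunit of FARSA (chr2:222566899-222656092, minus strand), had 112.6, 113.3 and 104.5 CPM against 89.8, 86.6 and 92.9 CPM and fell by 0.30 on the log2 scale (SE 0.05, adjusted p = 0.0015). The subunits of this enzyme, which is built from both, thus had calls in opposite directions as fitted. Their transcripts have 61.3% (FARSA) and 40% (FARSB) GC. Neither passed by edgeR after the GC and length correction described below (FARSA -0.10, adjusted p = 0.30, FARSB 0.11, adjusted p = 0.055). IARS1 (isoleucine) had 332.0, 328.3 and 318.9 against 278.1, 260.3 and 279.9 CPM, and NARS1 (asparagine) 202.6, 188.5 and 179.5 against 160.4, 151.4 and 166.2 CPM. Both fell by 0.26 on the log2 scale. In the same way EPRS1, a fused enzyme for glutamate and proline, had 187.9, 199.1 and 195.9 against 175.1, 155.5 and 170.2 CPM, and RARS1 (arginine) 183.9, 180.7 and 161.8 against 148.4, 148.7 and 156.2 CPM, each down by 0.22.

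TARS1 (threonine) completed the falling set at a log2 fold change of -0.14, with 273.7, 271.9 and 260.4 CPM in the controls and 249.5, 234.7 and 246.7 CPM in the overexpressing cells. Leaving out control 1, control 2 or overexpressing library 2 brought its adjusted p from 0.025 to 0.10, 0.098 and 0.098, and RARS1 went from 0.012 to 0.056 without control 1 or without control 2. Summed over the 10 rising genes the controls were at 2396 ± 50 CPM and the overexpressing cells at 2895 ± 124 CPM, and over the 7 falling genes at 1580 ± 46 and 1338 ± 55 CPM (SD over 3 libraries). These sums follow from how the sets were chosen and are given as a description.

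GARS1 (glycine) and KARS1 (lysine) had no call. Each is a single gene that supplies both the cytosolic and the mitochondrial enzyme. GARS1 stood at 302.5, 302.6 and 306.8 CPM in the controls and 306.2, 308.3 and 304.5 CPM in the overexpressing cells (log2 fold change 0.01, SE 0.03, adjusted p = 0.84). KARS1 stood at 467.6, 445.5 and 445.1 against 466.9, 440.8 and 438.7 CPM (log2 fold change -0.01, SE 0.04, adjusted p = 0.85). The groups overlapped for both.

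**Figure D3:**
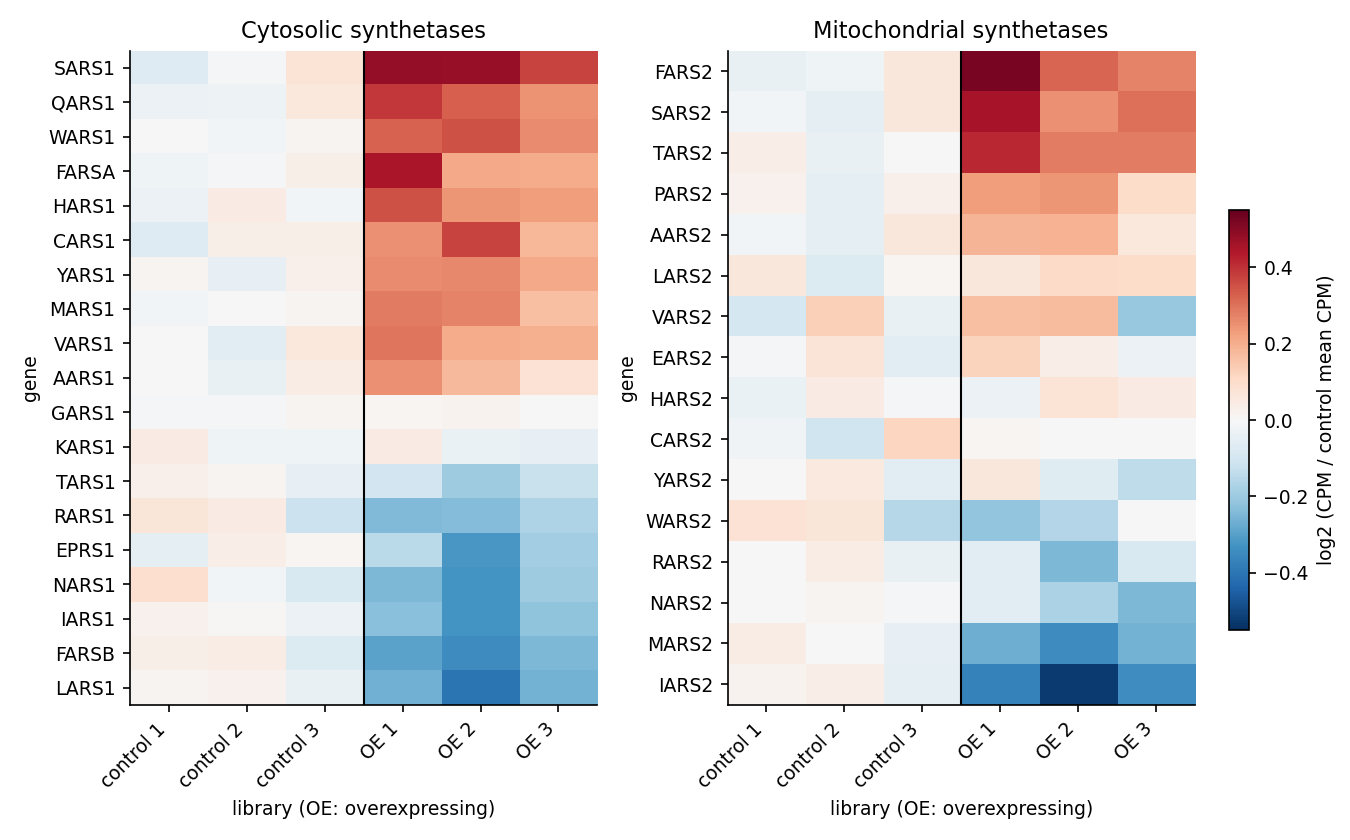
Level of each synthetase gene in each of the 6 libraries as log2 of its CPM over the control mean, cytosolic genes on the left and mitochondrial genes on the right, red above and blue below the control mean. In the cytosolic panel the 10 upper genes are red and the 7 lowest blue in the 3 overexpressing libraries, with GARS1 and KARS1 near 0 between them.

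The direction of the cytosolic genes went with the GC content of their transcripts. The 10 that rose had transcripts of 49.5 to 61.7% GC, the 7 that fell 40.0 to 43.3% GC, and GARS1 and KARS1 47.1 and 47.3%. The same relation ran through the whole table. Entries were split into 4 bins of equal size by GC content, bounded at 42.3, 48.7 and 56.5%. From the lowest to the highest bin, 1.98, 7.15, 23.8 and 40.7% of entries were higher and 47.7, 23.4, 6.01 and 1.79% lower. Of the cytosolic genes, 5 lay in the lowest bin and all 5 fell, 2 of 4 fell in the next, all 8 rose in the next and both rose in the highest. Of the mitochondrial genes, the lowest bin held RARS2 without a call, 2 of 4 fell in the next, 2 of 8 rose in the next and 1 of 3 rose in the highest. Across the 35 members, Spearman's rho of fold change on GC content was 0.77, and 0.78 over the 19 cytosolic and 0.77 over the 16 mitochondrial genes. On transcript length the rho was -0.46 across the 35, -0.65 over the cytosolic and -0.18 over the mitochondrial genes. These are descriptions across genes that share 6 libraries and are not independent. The correction below takes in GC content and length together, and their separate parts were not tested. Set against entries of like GC content (20 bins of equal size), 30 of 35 members lay within the middle 50% of their bin. SARS1, WARS1 and the mitochondrial FARS2 lay above it, and MARS2 and VARS2 below it.

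When the GC content and length of transcripts were corrected for within each library, 2 cytosolic genes were higher and none was lower by edgeR, where 10.3% of all entries were higher and 12% lower. The 2 were SARS1 (log2 fold change 0.23, SE 0.05, adjusted p = 0.0097) and WARS1 (0.23, SE 0.04, adjusted p = 0.0028). Both also passed with any single library left out, at adjusted p of 0.009 to 0.038 for SARS1 and 0.003 to 0.018 for WARS1. The corrected values of the other 8 that rose ran from -0.10 (FARSA) to 0.09 (YARS1), and those of the 7 that fell from -0.07 (NARS1) to 0.11 (FARSB). FARSB, lower as fitted, was the furthest of these on the other side (SE 0.04, adjusted p = 0.055). With the correction fitted only on entries above a mean log2 CPM of 3, it passed as higher at 0.15 (adjusted p = 0.0084), and so did QARS1 (0.10, adjusted p = 0.044) and YARS1 (0.10, adjusted p = 0.035), where 11.1% of all entries were higher and 11.8% lower. This second form was chosen after seeing the data.

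**Figure D4:**
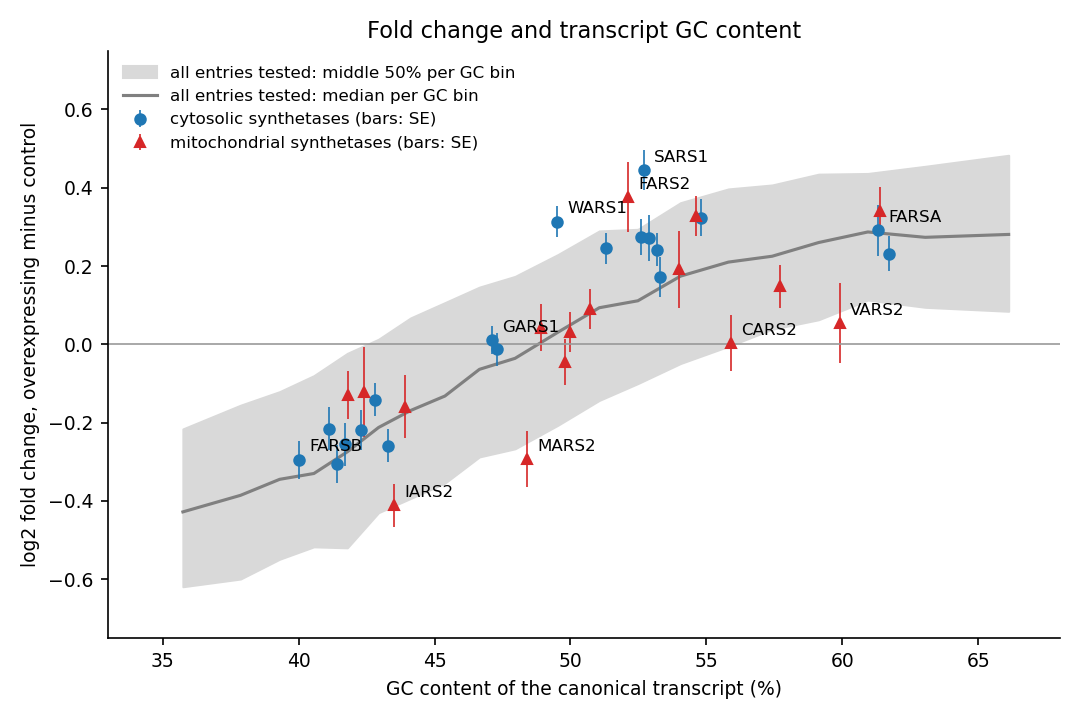
Log2 fold change of each synthetase gene (overexpressing minus control, bars are SE) against the GC content of its canonical transcript, cytosolic genes as blue circles and mitochondrial genes as red triangles, over the median (line) and the middle 50% (grey band) of all entries tested in bins of GC content. Members follow the line from about -0.3 near 40% GC to about 0.3 near 61% GC, and SARS1, WARS1 and FARS2 lie above the band.

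Many cytosolic synthetase genes are known ATF4 targets, and ATF4 acts with C/EBP family partners through an element whose core can be written TGATGNAAN. Promoter sequence (RefSeq, GRCh38.p14, from 250 bases before to 50 after the start) was on hand for 30 of the 35 member genes, in 39 entries, since some genes have more than 1 start. On either strand, 8 genes held this motif, and across all 35116 promoter entries 3.61% held it. The 8 were AARS1, CARS1, GARS1, IARS1, MARS1, NARS1, TARS1 and YARS2, of which all but YARS2 are on a list of 12 synthetases known as ATF4 targets. The palindromic CRE, TGACGTCA, was in none of the member promoters and in 1.85% of all. AARS2, LARS1, VARS1, VARS2 and YARS1 had no promoter entry.

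The matches in the 6 called genes are shown because nearly the same letters stand in genes with calls in opposite directions as fitted. Each is read along the strand that carries the motif, with the match in capitals and 20 bases on each side. The first 3 genes rose and the last 3 fell as fitted. Transcripts of the first 3 have 52.9 to 53.3% GC and those of the last 3 have 41.7 to 43.3%. After the GC and length correction none of the 6 passed, at adjusted p of 0.21 to 0.94 by edgeR.
AARS1, chr16:70289666-70289714, plus strand: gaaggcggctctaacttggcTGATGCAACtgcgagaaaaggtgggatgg
CARS1, chr11:3057398-3057446, plus strand: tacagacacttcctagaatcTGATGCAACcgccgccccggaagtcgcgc
MARS1, chr12:57488043-57488091, minus strand: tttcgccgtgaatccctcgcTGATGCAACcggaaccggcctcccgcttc
IARS1, chr9:92293683-92293731, plus strand: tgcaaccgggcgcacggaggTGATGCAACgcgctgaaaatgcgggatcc
NARS1, chr18:57621794-57621842, minus strand: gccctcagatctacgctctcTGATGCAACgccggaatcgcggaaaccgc
TARS1, chr5:33440946-33440994, minus strand: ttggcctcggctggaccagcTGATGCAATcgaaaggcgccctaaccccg
The 9 letters were identical in AARS1, CARS1, MARS1, IARS1 and NARS1, and TARS1 differed in the last. In all but NARS1 the motif lay on the strand opposite to the gene. A match describes these letters only and is not shown to be a bound site.

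Of the 12 synthetases on the ATF4 list, 6 rose and 5 fell, where 18.3% of all entries were higher and 19.7% lower. The median of the 12 was 0.09. GARS1 was the member without a call. Of the 7 cytosolic enzymes off the list, 4 were higher and 2 lower, with a median of 0.23. After the GC and length correction, 2 on the list (SARS1 and WARS1) and none off it were higher. None was lower in either set, beside 10.3% higher and 12% lower over all entries. SARS1 and WARS1 had promoter entries with no match to TGATGNAAN.

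Enzymes of the multi-synthetase complex had calls in both directions as fitted, where 18.3% of all entries were higher and 19.7% lower. Of 7 complex members followed, 2 were higher (QARS1 and MARS1) and 4 lower (LARS1, IARS1, EPRS1 and RARS1), KARS1 had no call, and the median log2 fold change was -0.22. The aspartyl enzyme of the complex was not among those followed. Of 12 cytosolic enzymes outside the complex, 8 rose and 3 fell, with a median of 0.24. The complex members had a median GC content of 43.3% and the others 52.0%, and after the correction the medians were -0.0073 and 0.04. No complex member passed in either direction after the correction, and 2 of the 12 others (SARS1 and WARS1) did, as higher. Over all entries, 10.3% were then higher and 12% lower. By catalytic class, 6 of 10 cytosolic class I genes were higher and 4 lower, against 4 of 9 higher and 3 lower in class II. Corrected, 1 gene of each class was higher and none lower. The difference between these sets was not tested.

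Among the mitochondrial enzymes, FARS2 (phenylalanine) rose from 15.8, 15.9 and 16.9 CPM in the controls to 23.3, 20.2 and 19.6 CPM (log2 fold change 0.38, SE 0.09, adjusted p = 0.0093). SARS2 (serine) rose from 52.6, 51.4 and 55.5 to 72.9, 63.3 and 65.7 CPM, a log2 fold change of 0.34, and TARS2 (threonine) from 61.8, 58.7 and 60.5 to 80.4, 73.4 and 73.3 CPM, a log2 fold change of 0.33. In all 3 genes overexpressing library 1 was the highest, and the groups did not overlap. After the GC and length correction none of the 3 passed (0.18 for FARS2, -0.05 for SARS2 and 0.10 for TARS2, adjusted p = 0.17, 0.62 and 0.15 by edgeR). A GENCODE entry on the same strand shares 1492 of the 3098 exon bases of SARS2, and reads over them can be split between the entries.

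IARS2, the mitochondrial isoleucyl enzyme and the most abundant mitochondrial member (chr1:220094132-220148041, plus strand), fell most. It had 159.4, 161.4 and 151.5 CPM in the controls and 121.8, 109.2 and 124.1 CPM in the overexpressing cells, far from overlapping (log2 fold change -0.41, SE 0.06, adjusted p = 0.00063). MARS2, the mitochondrial methionyl enzyme (chr2:197705369-197708395, plus strand), had 23.8, 23.2 and 22.4 CPM against 19.2, 18.2 and 19.3 CPM (log2 fold change -0.29, SE 0.07, adjusted p = 0.010). After the correction both remained lower, IARS2 by 0.24 (SE 0.05, adjusted p = 0.0065) and MARS2 by 0.32 (SE 0.07, adjusted p = 0.0095). With any single library left out of the corrected fit, the adjusted p was 0.0039 to 0.032 for IARS2 and 0.013 to 0.043 for MARS2.

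CARS2 (cysteine) was the gene nearest to no difference as fitted, with 28.1, 26.3 and 30.9 CPM in the controls and 28.6, 28.5 and 28.4 CPM in the overexpressing cells (log2 fold change 0.0031, SE 0.07, adjusted p = 0.98). Its transcript has 55.9% GC, where entries of like GC content had a median log2 fold change of 0.21, and it passed as lower by 0.30 once corrected (SE 0.06, adjusted p = 0.0086). That call held with any single library left out of the corrected fit, at adjusted p of 0.014 to 0.031. VARS2 (valine) had 65.8, 77.0 and 68.4 CPM against 79.0, 79.4 and 60.9 CPM, with control 2 and overexpressing library 3 apart from the rest of their groups. The entry ENSG00000288473 shares 4073 of the 6467 exon bases of VARS2 on the same strand and had 31.8, 13.2 and 37.6 against 41.3, 28.4 and 51.4 CPM. The sum of both was 97.6, 90.2 and 106.0 against 120.2, 107.8 and 112.4 CPM, which did not overlap. How reads were assigned between them was not tested, so the VARS2 value is uncertain.

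The other 9 mitochondrial genes had no call, with log2 fold changes of 0.19 for PARS2 (proline), 0.15 for AARS2 (alanine), 0.09 for LARS2 (leucine), 0.04 for EARS2 (glutamate) and 0.03 for HARS2 (histidine). The values were -0.04 for YARS2 (tyrosine), -0.12 for WARS2 (tryptophan), -0.13 for RARS2 (arginine) and -0.16 for NARS2 (asparagine). YARS2 was at -0.17 after the correction (adjusted p = 0.076), and it passed as lower in the fit on entries above log2 CPM 3 (-0.17, adjusted p = 0.042), beside MARS2, IARS2 and CARS2. AARS2 lay closest to the threshold (adjusted p = 0.064) and passed without control 3 (0.042) or without overexpressing library 3 (0.029). The SE was 0.05 to 0.12 over all mitochondrial members and 0.03 to 0.07 over all cytosolic members, so the ranges overlapped. How far this bears on the number of calls was not tested.

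Enzymes for the same amino acid did not always share a call. In the 13 amino acids with a gene for each compartment, both genes rose for serine and both fell for isoleucine as fitted. The calls as fitted were opposite for methionine (MARS1 higher, MARS2 lower) and for threonine (TARS1 lower, TARS2 higher). In the other 9 the cytosolic gene alone passed. After the GC and length correction SARS1, IARS2 and MARS2 still passed by edgeR. Their partners SARS2 (-0.05, adjusted p = 0.62), IARS1 (-0.04, adjusted p = 0.58) and MARS1 (0.06, adjusted p = 0.32) did not. Neither did TARS1 (-0.006, adjusted p = 0.94) or TARS2 (0.10, adjusted p = 0.15). In the other 9 pairs, WARS1 was the only cytosolic gene still passing, and CARS2 passed as lower. For leucine, LARS1 was at -0.31 and LARS2 at 0.09, with transcripts of 41.4 and 50.7% GC. Whether the genes of a pair differed in response was not tested.

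HARS1 and HARS2 stand head to head on chromosome 5, with RefSeq starts at 140691370 on the minus strand and 140691455 on the plus strand. HARS1 rose by 0.27 and HARS2 had a log2 fold change of 0.03 (SE 0.05, adjusted p = 0.69), with 46.9, 49.7 and 47.8 CPM in the controls and 47.0, 50.7 and 49.7 CPM in the overexpressing cells. The region shared by the 2 promoter windows (chr5:140691321-140691504, plus strand, 184 bases) is shown because both genes start in it, with the 2 start bases in capitals, HARS1 first.
HARS1-HARS2: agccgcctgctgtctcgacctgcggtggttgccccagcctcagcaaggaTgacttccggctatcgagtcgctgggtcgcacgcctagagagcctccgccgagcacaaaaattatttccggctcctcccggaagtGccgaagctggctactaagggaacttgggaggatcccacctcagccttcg
The annotated exons of the 2 genes overlap by 108 bases, and HARS1 exons overlap WDR55 on the opposite strand by 1090 bases. After the GC and length correction HARS1 was at 0.06 (adjusted p = 0.41) and HARS2 at -0.08 (adjusted p = 0.21).

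Proteins that work beside the cytosolic enzymes were followed as a list of 15 scaffolds, editing factors, transfer RNA handling proteins and elongation factors. Of these, 7 were higher and 4 lower (median log2 fold change 0.09), beside 18.3% and 19.7% of all entries. The 3 scaffolds of the multi-synthetase complex differed in direction. AIMP2 rose from 88.3, 82.7 and 89.0 to 122.8, 110.6 and 101.8 CPM (log2 fold change 0.37, adjusted p = 0.0027), while AIMP1 fell by 0.22 and EEF1E1 by 0.28. AIMP2 still passed after the correction (0.23, adjusted p = 0.024), and AIMP1 (0.15) and EEF1E1 (0.06) did not. XPOT, which exports transfer RNA from the nucleus, fell from 272.1, 276.4 and 258.4 to 192.2, 183.8 and 203.9 CPM (log2 fold change -0.48, and -0.10 with adjusted p = 0.048 after the correction). SEPSECS, which makes selenocysteine on its transfer RNA, fell by 0.40. The elongation factors EEF2, EEF1G and EEF1D rose by 0.34, 0.27 and 0.29, and none of the 3 passed after the correction. Of the other elongation factors on the list, EEF1B2 was higher as fitted (0.14, adjusted p = 0.017) and corrected (0.15, adjusted p = 0.017). EEF1A1 did not pass as fitted (0.02, adjusted p = 0.62) and was higher after the correction (0.23, adjusted p = 0.0086). The count of 4 lower fell to 1 without control 1, control 2 or overexpressing library 2, and to 2 without overexpressing library 1. After the correction 4 of 15 were higher and 1 lower, beside 10.3% and 12% of all entries.

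Mitochondrial partners, 18 genes of charging, transfer RNA modification and translation, were higher in 3 cases and lower in 7 (median log2 fold change -0.16). Over all entries tested, 18.3% were higher and 19.7% lower. Mitochondria charge glutamine by an indirect route, in which EARS2 loads glutamate and the GatCAB amidotransferase converts it. Its subunit GATB rose by 0.27, its subunit QRSL1 fell by 0.35, and GATC, at 0.18 on the log2 scale, did not pass (adjusted p = 0.11). After the correction GATC was higher (0.34, adjusted p = 0.025), while GATB (0.15, adjusted p = 0.078) and QRSL1 (-0.05, adjusted p = 0.70) did not pass. TUFM, the mitochondrial elongation factor that delivers charged transfer RNA, rose from 477.5, 465.9 and 493.4 to 629.9, 587.2 and 561.4 CPM (log2 fold change 0.31). The initiation factor MTIF2 fell by 0.39, the release factor MTRF1L by 0.34 and the elongation factor GFM2 by 0.23. After the correction 4 were higher and 3 lower, where 10.3% of all entries were higher and 12% lower. None of the 3 rises was among the 4, and of the 7 falls MTIF2 alone was still lower (-0.22, adjusted p = 0.009). A pair of the falls, the elongation factor GFM1 and the transfer RNA modifying protein MTO1, passed in the other direction. GFM1 went from -0.19 as fitted to 0.22 corrected (adjusted p = 0.014), and MTO1 from -0.20 to 0.17 (adjusted p = 0.027). Without control 3 the rises numbered 5, and without control 2 the falls numbered 4.

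The kinases that stop initiation when charging or other functions fail, and their partners, were 6 genes with none higher and 3 lower. Among all entries tested the shares were 18.3% higher and 19.7% lower. EIF2AK4, the sensor of uncharged transfer RNA, fell from 160.6, 155.0 and 154.4 to 107.4, 110.2 and 115.9 CPM (log2 fold change -0.49, SE 0.04, adjusted p = 0.00015). It was still lower after the correction (-0.38, adjusted p = 0.00024). Its activator GCN1, at 0.08 on the log2 scale, did not pass (adjusted p = 0.11). The double-stranded RNA sensor EIF2AK2 fell by 0.37 and the substrate subunit EIF2S1 by 0.17. Corrected, EIF2AK2 was at 0.13 (adjusted p = 0.065) and EIF2S1 passed as higher at 0.20 (adjusted p = 0.015).

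Of 28 amino acid response genes, the known targets of ATF4 outside the synthetases together with ATF4 itself, 18 rose and 1 fell (XPOT, also counted above). All entries tested had 18.3% higher and 19.7% lower. The median of the 28 was 0.36 on the log2 scale. The median over the 12 ATF4-list synthetases was 0.09. CHAC1, which degrades glutathione, ATF3, a stress-induced transcription factor, PPP1R15A, which helps to dephosphorylate eIF2, and SLC3A2, the shared heavy chain of amino acid exchangers, had the smallest p, at log2 fold changes of 1.83, 1.83, 0.92 and 0.64. ATF4 rose by 0.13 (adjusted p = 0.033), and after the correction its value was -0.08 (adjusted p = 0.14). ASNS, the asparagine synthetase, named after its values were seen, rose from 146.4, 142.9 and 152.8 to 199.7, 221.4 and 197.9 CPM (log2 fold change 0.49, and 0.60 after the correction). After the correction 14 of the 28 were higher and 4 lower, beside 10.3% and 12% of all entries. The 14 held 11 of the 18 rises, and the median of the 28 was 0.22. The 18 higher as fitted became 14 without control 1 or without control 2. Without overexpressing library 3 the number lower as fitted was 2.

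Because WARS1 is interferon-inducible, a short list of interferon genes is given beside it. Of 12 measured, 9 were higher and none lower by edgeR (10 higher and none lower at an unadjusted p under 0.05), with the same 9 and 0 after the correction. At adjusted p under 0.05, 18.3% of all entries were higher and 19.7% lower as fitted, and 10.3% and 12% after the correction. The share at the unadjusted threshold was not counted. ISG15, IFIT3 and IFIT1 had log2 fold changes of 2.87, 3.13 and 3.48 and TAP1 one of 0.61, beside 0.31 for WARS1. The guanylate-binding protein GBP1, which like WARS1 responds strongly to interferon gamma, stood at 0.21 on the log2 scale with no call (SE 0.19, adjusted p = 0.42).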

How the data were processed

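RNA-seq gene counts were taken for 6 H1299 libraries, 3 controls and 3 overexpressing lncBCAS1-4_1. Per the labels' protocols, the authors used fastp for trimming, HISAT2 for alignment (GRCh38), StringTie for assembly and levels, and edgeR for testing. The deposited values are raw counts per gene. Not given in the sources used here: how reads were assigned to genes, strandedness and tool versions.

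The tests ran in edgeR 4.0.16 (R 4.3.3) by the quasi-likelihood F-test, with TMM scaling, filterByExpr (min.count 10, min.total.count 15) and group alone in the model. Benjamini-Hochberg adjustment covered 19101 entries, with a threshold of 0.05. Each SE is the fold change on the log2 scale over the root of its F value. GC content and length were read from the canonical transcript in GENCODE 44, found for 99.3% of entries. All 35 members matched GENCODE by symbol and ID. For the correction, a library's log2 CPM minus the mean over libraries was fitted by natural splines (5 degrees of freedom each) on GC content and on log2 length, and the fit entered as an offset. It was planned with the other settings (DESeq2 1.42.0, limma-voom of limma 3.58.1, scaling, filters, replicate block, each library left out). The fit on entries above log2 CPM 3 and leaving out libraries in the corrected fit were added after seeing the data. The model was tested on simulated data.

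Members and lists were chosen with earlier results of these data known. Named were all members and, of each related list, up to 4 rising and 4 falling genes with the smallest p, and others were named after their values were seen. Some genes are not reported here. Members had 719 to 42158 counts per library. Counts of replicates differed beyond counting noise (chi-square over its degrees of freedom 11.4 to 22.2), and all were kept as separate samples.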

Additional observations from a re-analysis of the deposited data

How the results depend on the processing

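The count calls of the members did not change under DESeq2 size factors, limma-voom or no filter on low counts. DESeq2 and the stricter filter each added AARS2, and library size alone removed AARS1 and added RARS2. The replicate block lost AARS1 and TARS1, leaving 12 members higher and 8 lower (2681 and 3014 of all entries), and changed the lower cytosolic partners from 4 to 2. Deviations of same-numbered libraries correlated at -0.073, -0.262 and -0.438, and no library correlated best with its own number. Deviations were taken from the group means, so these correlations are tied to each other. They cannot settle whether same-numbered libraries were prepared together.

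With each library left out, the counts ran from 9 to 10 higher and 5 to 7 lower for the cytosolic synthetases and from 3 to 4 higher with 2 lower for the mitochondrial ones. For amino acid response genes 14 to 19 were higher and 1 to 2 lower. The counts were 1 to 4 lower for cytosolic partners, and 3 to 5 higher and 4 to 7 lower for mitochondrial partners. The 2-fold criterion left 4 amino acid response genes higher and 0 lower, 0 in either direction in both partner lists and both synthetase sets, and 338 entries higher and 226 lower in all. Library size alone gave 3 amino acid response genes lower.

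The GC and length correction left 2 cytosolic synthetases higher and 0 lower, 0 mitochondrial higher and 3 lower, 4 amino acid response genes lower, 4 cytosolic partners higher and 1 lower, 3 mitochondrial partners lower, and 1975 entries higher and 2288 lower. With the replicate block added to it these were 2 and 0, 0 and 4, 2 amino acid response genes lower, 2 and 0 cytosolic partners, 3 mitochondrial partners lower, and 1407 and 1625 entries. Fitted on entries above log2 CPM 3, they were 5 and 0, 0 and 4, 2, 3 and 0, 3, and 2115 and 2251.

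Log2 fold changes that changed sign under the correction, under the correction with the replicate block, and under the fit above log2 CPM 3 were, in this order, -0.0955, -0.0992 and -0.0447 for FARSA, -0.0164, -0.0167 and -0.0136 for GARS1, 0.0555, 0.0545 and 0.0736 for EPRS1, and 0.108, 0.108 and 0.149 for FARSB. They were -0.0456, -0.0462 and -0.0212 for PARS2, -0.227, -0.229 and -0.189 for VARS2, -0.0843, -0.0838 and -0.0797 for HARS2, -0.297, -0.295 and -0.264 for CARS2, 0.0355, 0.0362 and 0.0476 for WARS2, and 0.0108, 0.0093 and 0.0335 for RARS2. VARS1 (-0.0305 and -0.0308), SARS2 (-0.0457 and -0.0484) and AARS2 (-0.0372 and -0.0373) changed sign under the first 2, and TARS1 (0.0065) and LARS1 (0.0103) under the last. Library size alone turned GARS1 (-0.0385), EARS2 (-0.0078), HARS2 (-0.0183) and CARS2 (-0.0463). With each library left out, KARS1 ran from -0.0424 to 0.0111, VARS2 from -0.0080 to 0.169 and CARS2 from -0.0498 to 0.0667, and in the corrected fit CARS2 ran from -0.34 to -0.24. The causes were not tested. WARS2 and PARS2 had the lowest levels among the members, at 9.89 and 9.29 CPM in the controls, and how far depth limits their precision was not tested.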
